A study of Mus musculus with 6 samples.

Results

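The NF-kB subunit genes are Nfkb1, Nfkb2, Rel, Rela and Relb, 5 of the 54838 genes counted in these libraries. They were taken by symbol, matched to Ensembl identifiers through GENCODE M21, and all 5 were among the 11924 genes that passed the expression filter. RNA had been sequenced from neutrophils that were sorted out of mouse corneas 24 h after these were infected with PAO1, a common laboratory isolate of Pseudomonas aeruginosa. One group of 3 libraries came from wild-type (WT) mice and the other group of 3 from IL1a -/- mice, which lack the gene of the cytokine IL-1 alpha. Both groups were infected, so there is no uninfected reference, and neither mouse strain nor age nor the number of animals per library is given in the sources used here. The design asks how the neutrophil transcriptome differs when IL-1 alpha is missing.

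NF-kB is a family of transcription factors that act as pairs of subunits. RelA, c-Rel and RelB carry a domain that activates transcription, whereas the products of Nfkb1 and Nfkb2 are made as long precursors, p105 and p100, that are shortened to the DNA-binding subunits p50 and p52. In resting cells inhibitors of the IkB family hold the pairs in the cytoplasm. Signals from Toll-like receptors, the IL-1 receptor and TNF receptors activate the IkB kinase complex, which marks the inhibitor for destruction and frees mainly p50 with RelA or c-Rel (the canonical route). A slower, non-canonical route through the kinase NIK processes p100 and frees p52 with RelB. In neutrophils the pathway drives cytokine, chemokine and survival genes. It is regulated largely at the protein level, which counts of RNA do not measure.

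The libraries held 22855676 to 33626008 gene counts. Il1a, the deleted gene, was at 5116, 6195 and 8776 CPM in wild-type replicates 1, 2 and 3 (CPM, counts scaled to library size, here by the TMM method) and at 2.89, 5.37 and 5.15 CPM in the knockout replicates, so no library went against its label. On the first principal component of log2 CPM, knockout replicate 2 lay at 67.3 and the others between -32.9 and 2.1. The 10 neutrophil markers summed to 29619 to 35120 CPM in wild-type libraries and to 28389 to 31369 CPM in knockout libraries. The 12 monocyte and macrophage markers summed to 284 to 286 CPM and 314 to 352 CPM, ranges that do not overlap. The 10 dendritic cell markers, a cell type known for RelB, summed to 4.30 to 6.41 CPM and 4.50 to 12.3 CPM. Of these 10, 5 passed the expression filter, and only 1, Siglech, was at 0 in every library. Of 13 lymphocyte markers 2 passed the filter and 7 were at 0 throughout, Cd3e, Cd4, Cd8a and Pax5 among them. The lymphocyte list summed to at most 1.80 CPM. Epithelial markers ranged from 19.4 to 140 CPM and stromal and vessel markers from 42.9 to 81.9 CPM, with overlapping groups. The part of these other cells in the values below was not tested. In such bulk samples fewer cells of a type and less RNA per cell cannot be told apart.

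None of the 5 subunit genes passed the test between the genotypes. With edgeR's quasi-likelihood test over all genes, 0 of 5 had an adjusted p under 0.05, against 0.101% of all tested genes (12 of 11924), and adjusted p ranged from 0.948 to 0.989. At an unadjusted p under 0.05 there were also 0 of 5, against 5.99% of all tested genes, and DESeq2 and limma-voom called 0 as well. For 0 of the 5 were the genotypes separated without overlap, against 11.6% of all tested genes. Fold changes were above 0 on the log2 scale for 4 members and below 0 for Rela, with a median of 0.10 beside 0.0045 over all tested genes. Of all tested genes 50.7% lay above 0.

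Nfkb1 (ENSMUSG00000028163; GRCm38 chromosome 3, 135584655 to 135691547, minus strand) encodes p105 and p50. It was at 472, 505 and 653 CPM in wild-type replicates 1, 2 and 3 and at 437, 655.5 and 752 CPM in knockout replicates 1, 2 and 3. The lowest and the highest of the 6 values were both knockout libraries, so the wild-type range lay inside the knockout range. Means were 543 ± 97 and 615 ± 161 CPM (SD, n = 3 each). The log2 fold change was 0.18 (SE 0.20, edgeR adjusted p = 0.956), with a 95% interval from -0.25 to 0.61, or from 0.838 to 1.53 as a ratio of knockout to wild type. Its spread between replicates was wide. The pooled SD of log2 CPM was 0.34, larger than for 95.2% of the 1851 genes that averaged 50 CPM or more, whose median was 0.16. With 1 library left out the log2 fold change ran from 0.0061 (knockout replicate 3) to 0.36 (knockout replicate 1), and was 0.071 and 0.33 when the library left out was wild-type replicate 1 or 3.

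Nfkb2 (ENSMUSG00000025225; chromosome 19, 46304320 to 46312385, plus strand) encodes p100 and p52. It was at 730.0, 775 and 955 CPM in the wild-type libraries and 786, 869 and 1051 CPM in the knockout libraries. The groups overlapped, since wild-type replicate 3 exceeded knockout replicates 1 and 2. The log2 fold change was 0.14 (SE 0.14, edgeR adjusted p = 0.948, 95% interval -0.18 to 0.46). With 1 library left out it ran from 0.011 (knockout replicate 3) to 0.26 (wild-type replicate 3), and was 0.045 when that library was wild-type replicate 1 and 0.22 when it was knockout replicate 1. Of the merged exon length, 18.1% (830 bases) is shared with AC114539.1 and Psd on the other strand. The kit does not mark strand, so reads there cannot be assigned by strand, and the unstranded count leaves them out. The summed strand columns exceeded the unstranded count by a factor of only 1.01 in each library, and with them the log2 fold change was 0.15.

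Rel (ENSMUSG00000020275; chromosome 11, 23736847 to 23770970, minus strand) encodes c-Rel, the subunit best known from lymphoid and myeloid cells. Wild-type libraries were at 640.1, 649 and 914 CPM and knockout libraries at 745, 863 and 749 CPM. Wild-type replicate 3 was the highest of all, and the other wild-type libraries were the lowest. The log2 fold change was 0.10 (SE 0.15, edgeR adjusted p = 0.972, 95% interval -0.24 to 0.43). It turned to -0.0083 without wild-type replicate 1, was 0.014 without wild-type replicate 2, 0.013 without knockout replicate 2, and 0.28 without wild-type replicate 3 (edgeR adjusted p = 0.808).

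Rela (ENSMUSG00000024927; chromosome 19, 5637483 to 5648130, plus strand) encodes RelA, also called p65, the main activating subunit of the canonical route. Its values were 404, 449 and 554 CPM in the wild-type libraries and 452, 446 and 484 CPM in those of the knockout. The knockout libraries lay within the wild-type range and closer together, with an SD of 0.062 on the log2 scale against 0.23 in wild type. The log2 fold change was -0.026 (SE 0.13, edgeR adjusted p = 0.989, 95% interval -0.32 to 0.26), the narrowest interval of the 5 genes. As a ratio that interval runs from 0.803 to 1.20. With 1 library left out the value ran from -0.14 (wild-type replicate 1) to 0.11 (wild-type replicate 3), with -0.058 for wild-type replicate 2, -0.064 for knockout replicate 3 and -0.014 for knockout replicate 2. It was 0.039 when counts were scaled by library size alone.

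Relb (ENSMUSG00000002983; chromosome 7, 19606217 to 19629438, minus strand) encodes RelB, the partner of p52 in the non-canonical route. It was at 258, 317 and 369 CPM in the wild-type libraries against 317, 309.6 and 361 CPM after knockout, and here too the knockout libraries lay within the wild-type range. The log2 fold change was 0.065 (SE 0.14, edgeR adjusted p = 0.981, 95% interval -0.25 to 0.38). It was -0.076 when wild-type replicate 1 was left out, 0.19 when wild-type replicate 3 was and -0.0076 when knockout replicate 3 was. For each of the 5 genes wild-type replicate 3 was the highest wild-type library and wild-type replicate 1 the lowest, and the same was true of Il1a. Wild-type replicate 3 also had the smallest TMM factor, 0.926 against 0.979 to 1.05 in the other libraries.

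**Figure D1:**
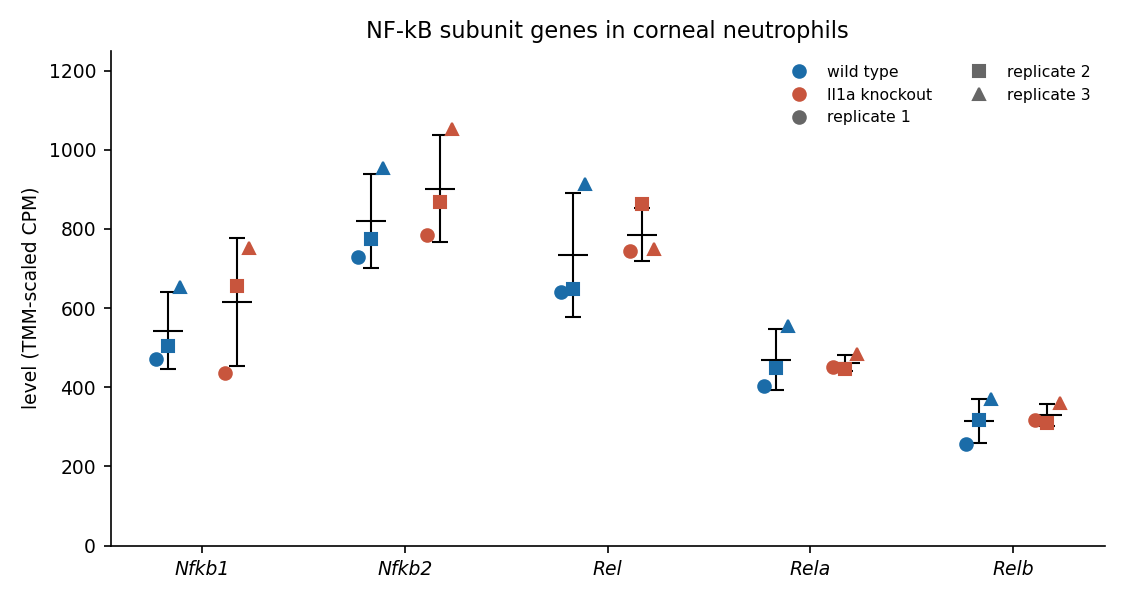
Level of each NF-kB subunit gene (TMM-scaled CPM) in the 3 wild-type and 3 Il1a knockout libraries, with mean and SD as bars and replicate numbers as marker shapes. The genotypes overlap for all 5 genes, with Relb at 258 to 369 CPM and Nfkb2 at 730.0 to 1051 CPM over the 6 libraries (not corrected for length).

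CPM favours long transcripts, so levels were compared between the subunits only per kb of length. With all annotated exons of a gene merged, Nfkb2 was the most abundant at 159 to 229 CPM per kb over the 6 libraries. Rela followed at 132 to 180 CPM per kb, Rel at 85.7 to 122, Relb at 66.4 to 95.1 and Nfkb1 at 36.3 to 62.4 CPM per kb. Neighbours in this order overlapped in range for Nfkb2 and Rela and for Rel and Relb, although the former of each pair was higher within all 6 libraries. Rela and Rel, and Relb and Nfkb1, did not overlap. The place of Nfkb1 rests on its length. Its merged exons span 12.06 kb over 10 annotated transcripts, and its principal coding transcript is 4.12 kb long. Per kb of the principal coding transcript, a length chosen after the data were seen, Nfkb2 was at 232 to 335 CPM per kb and did not overlap Rela at 149 to 204 CPM per kb. Relb (117 to 167), Nfkb1 (106 to 183) and Rel (85.7 to 122) followed, each overlapping its neighbour, and Relb exceeded Nfkb1 in 4 of 6 libraries. Nfkb2 first and Rela second was common to both lengths.

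**Figure D2:**
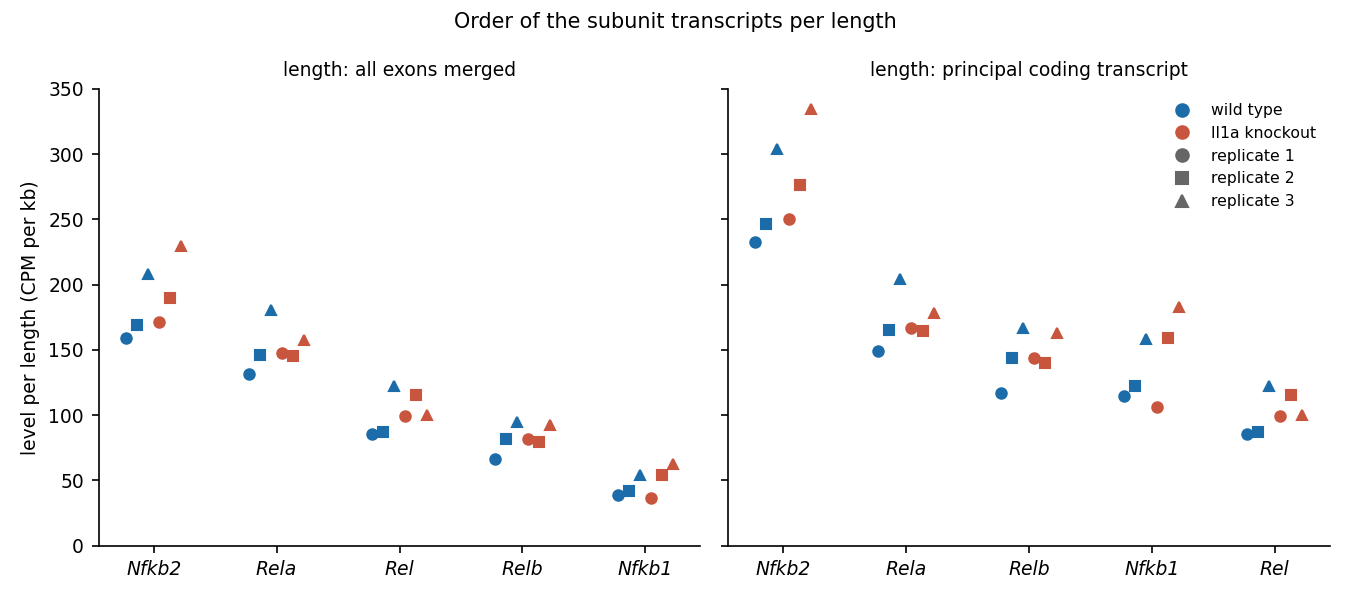
Level per length (CPM per kb) of the 5 subunit transcripts in each library, by merged exon length on the left and by principal coding transcript on the right, genes ordered by their mean. Nfkb2 leads at either length, and Nfkb1 moves from the last place to the one before Rel.

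The shares of the subunit transcripts overlapped between the genotypes for all 5 genes. As shares of the summed level per kb of merged exons, Nfkb2 made up 32.3% ± 0.75 in wild type and 33.4% ± 2.0 in the knockout, and Rela 27.5% ± 0.3 and 25.6% ± 1.6 (SD, n = 3 each). Rel made up 17.6% ± 1.0 and 18.0% ± 2.1, Relb 14.6% ± 0.9 and 14.4% ± 0.8, and Nfkb1 8.10% ± 0.12 and 8.59% ± 1.60. Wild-type shares of Nfkb1 were within 7.97% to 8.20%, while knockout replicate 1 was below them at 6.76% and knockout replicates 2 and 3 above them at 9.30% and 9.71%. The summed level was 482, 526 and 660.2 CPM per kb in wild-type libraries against 536, 584 and 642 CPM per kb in knockout libraries, a log2 difference of 0.089 (two-sided exact permutation test, p = 0.7). With 3 libraries against 3 this test cannot give a p below 0.1. The non-canonical pair, Nfkb2 plus Relb, stood to Nfkb1, Rel and Rela together as 0.880, 0.912 and 0.850 in wild-type libraries and as 0.893, 0.855 and 1.01 in knockout libraries. By this merged exon length, knockout replicate 3 was the only library above 1. The log2 difference of 0.057 (exact permutation p = 0.6) became -0.011 without that library. Shares and ratio depend on the length used, above all for Nfkb1. Per kb of the principal coding transcript Nfkb1 made up 16.3% ± 0.28 in wild type and 17.2% ± 2.88 in the knockout. The log2 difference of the ratio was then 0.033 (exact permutation p = 0.7).

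Because Nfkb2 and Rel are themselves known as NF-kB target genes, their promoters are shown with the matches to the NF-kB motif, beside that of Nfkbia, a standard NF-kB target. The windows came from RefSeq (GRCm38.p6) and run from 250 bases before to 50 bases after an annotated start. Of the 5 members 3 matched the table: Nfkb2 with 3 windows and Rel and Rela with 1 each. Nfkb1 and Relb were not analysed here. The kappa-B consensus, a motif of 10 bases, was searched on both strands. It was found in all 3 windows of Nfkb2 and in the windows of Rel and Nfkbia, and not in the window of Rela, beside 4.51% of all 32851 windows. Each line below is written 5′ to 3′ on the strand of the gene, with the matched bases in capitals. The Rel site and the Nfkb2 site on the line that comes before the others read as the motif on both strands, and each overlaps a further match shifted by 1 base.
Nfkb2, chr19:46304688-46304717: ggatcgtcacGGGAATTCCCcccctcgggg
Nfkb2, chr19:46304716-46304736: ggggccgaaaGGGGCTTTCCc
Nfkb2, chr19:46305449-46305478: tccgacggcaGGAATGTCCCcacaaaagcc
Nfkb2, chr19:46305695-46305724: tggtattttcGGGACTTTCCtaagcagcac
Rel, chr11:23771042-23771071: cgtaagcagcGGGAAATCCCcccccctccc
Nfkbia, chr12:55492657-55492686: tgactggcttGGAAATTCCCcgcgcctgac
The match of Rel lies at positions -92 to -83 and that of Nfkbia at -29 to -20 relative to the annotated start, in no GENCODE exon. The former pair of Nfkb2 lies at -39 to -30 and -11 to -2 of its upstream start, inside annotated exons of Nfkb2 and of AC114539.1. The other Nfkb2 sequences come from the windows of downstream starts. The last of them lies in an Nfkb2 exon and in both of those windows, which overlap. A match describes letters in the window and not binding of a factor.

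Of the 10 pairs of subunit genes, 1 was correlated in log2 CPM across the 6 libraries after adjustment, Rela with Relb. Their Pearson r was 0.91 (exact permutation p = 0.0028, Benjamini-Hochberg adjusted 0.028 over 10 pairs) and their Spearman rho was 1.00 (exact permutation p = 0.0028, adjusted 0.028), so both ranked the libraries alike. Without wild-type replicates 1 and 3, the farthest from the median of Rela, r was 0.996. The adjusted p does not set this pair apart from other genes. By r, Relb ranked 48th for Rela and Rela 40th for Relb among 1851 genes. Nfkb1 and Nfkb2 gave r = 0.92 (exact permutation p = 0.022, adjusted 0.10) and rho = 0.77 (exact p = 0.10, adjusted 0.21), and r = 0.94 without knockout replicates 1 and 3. Nfkb2 and Relb gave r = 0.85 (exact permutation p = 0.031, adjusted 0.10) and rho = 0.77 (exact p = 0.10, adjusted 0.21), and r = 0.63 without wild-type and knockout replicate 3. The other 7 pairs had r from 0.58 to 0.74 and exact permutation p from 0.10 to 0.24, none under 0.05 after adjustment. Rel with Rela and Rel with Relb, at 0.74 and 0.64, rested on wild-type replicates 1 and 3, and r was -0.066 and -0.13 without them. The other pairs of Rel went the other way. Nfkb1 with Rel rose from 0.61 to 0.98 without knockout replicates 1 and 3. Nfkb2 with Rel rose from 0.63 to 0.93 without wild-type and knockout replicate 3. For Nfkb2 and Rel rho was 0.83 (exact permutation p = 0.058, adjusted 0.21). All values of a library share its scaling factor. With library size alone r was 0.88 for Rela and Relb and 0.88 for Nfkb1 and Nfkb2, and 0.42 at the lowest, for Nfkb1 and Rela. Libraries of the 2 genotypes were pooled here, since 3 libraries are too few for a correlation within a genotype.

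**Figure D3:**
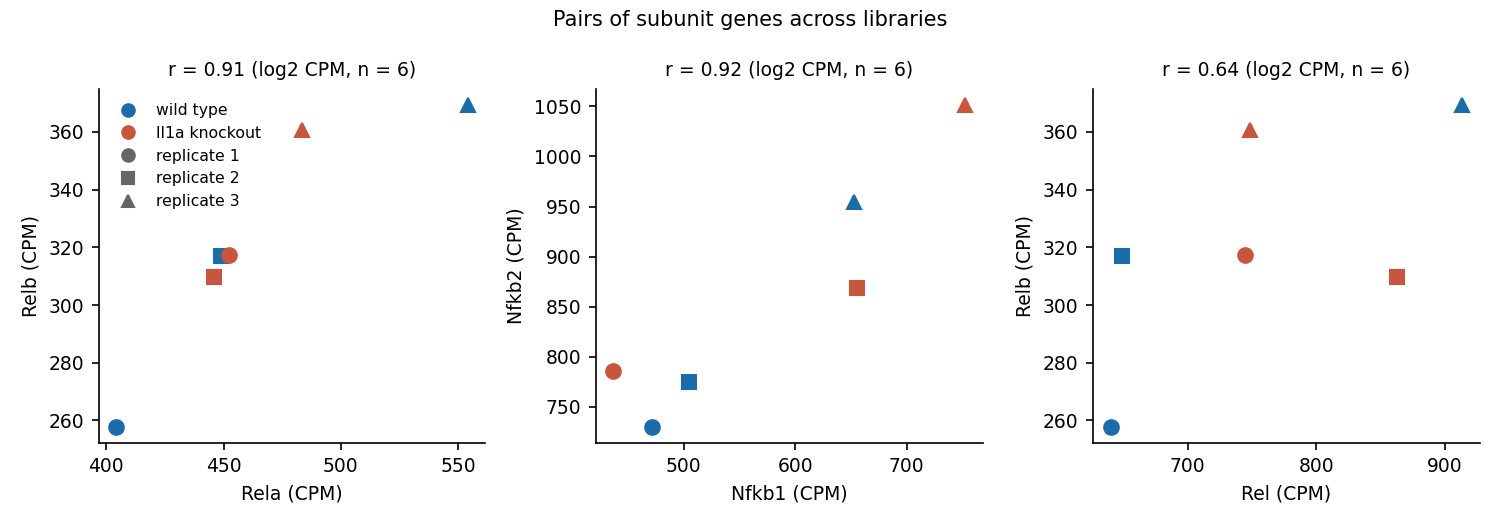
CPM of 3 pairs of subunit genes in the 6 libraries (axes do not start at 0), coloured by genotype and shaped by replicate number, with Pearson r of log2 CPM. Rela and Relb rank the libraries alike (r = 0.91), whereas Rel and Relb (r = 0.64) are spread, with knockout replicate 2 high in Rel and low in Relb.

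Among the 1851 genes that averaged 50 CPM or more, Relb ranked 48th for Rela by r and Rela 40th for Relb. Nfkb2 ranked 45th for Nfkb1, and Nfkb1 ranked 25th for Nfkb2. Relb ranked 100th for Nfkb2 and Nfkb2 106th for Relb, and the remaining ranks were from 217 to 531. The genes most like Relb over the 6 libraries were Lcp2, an adaptor in immune receptor signalling (r = 0.998, 946 ± 133 CPM in wild type against 979.5 ± 73.1 CPM after knockout, SD, n = 3 each), Irf5, a transcription factor of Toll-like receptor signalling (r = 0.997, 199 ± 32 and 208 ± 18 CPM), and Bcl2a1a, a survival gene (r = 0.995). Bcl2a1a has near-identical copies, so its counts are uncertain. For Rela they were Lims1, an adaptor at integrin adhesions (r = 0.989), Rab10, a small GTPase of vesicle traffic (0.987), and Vps37c, of the endosomal sorting machinery (0.972). For Rel the genes given are the aminopeptidase gene Npepps (r = 0.995) and Cflar, which encodes the caspase-8 regulator c-FLIP (0.983). Cflar averaged 845 ± 106 CPM in wild-type and 868 ± 42 CPM in knockout libraries. For Nfkb1 they were Csf2ra, the GM-CSF receptor alpha chain (r = 0.990 from 561 ± 95 and 614 ± 137 CPM), Rsrc2 (0.990) and Nrbp1 (0.985). For Nfkb2 they were the translation factor gene Eif2s3y (r = 0.991), the nuclear body gene Sp140 (0.985) and Rsrp1 (0.975). These genes were picked as the highest of all those compared, so their r is a description. Each of them had overlapping genotypes and none passed the test. This follows from picking genes that track members with overlapping genotypes, and is no separate result.

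The other genes of the pathway were described by 6 lists of 95 genes in all, of which 89 were tested. In edgeR's test 0 of the 89 passed, against 0.101% of all tested genes. At an unadjusted p under 0.05, 4 were higher and 2 lower in the knockout, against 3.44% and 2.55% of all tested genes. Genotypes did not overlap for 6 higher and 3 lower genes, against 6.12% and 5.48%. The median log2 fold change was 0.0023, beside 0.0045 over all tested genes. From each list the 4 tested genes of highest mean CPM, without regard to length, are given.

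Of the inhibitors, 0 of 8 passed, and the median log2 fold change was -0.053. Nfkbia, which encodes IkB alpha, the inhibitor that NF-kB itself induces, was at 8682, 8901 and 8901 CPM in the wild-type libraries and 7723, 7748 and 8072 CPM in the knockout libraries. All 3 knockout libraries were below all 3 wild-type libraries, as were those of 5.48% of the tested genes. The log2 fold change was -0.17 (SE 0.095, unadjusted p = 0.104, edgeR adjusted p = 0.897, 95% interval -0.38 to 0.041), so as a ratio the interval runs from 0.768 to 1.03. Per kb of merged exons, Nfkbia exceeded the 5 subunits together 11.2-, 10.5- and 8.37-fold in wild-type libraries and 8.94-, 8.24- and 7.81-fold in knockout libraries. Wild-type replicate 3 was below knockout replicate 1, so here the groups overlapped. The log2 difference was -0.26 (two-sided exact permutation test, p = 0.2). The size of the excess depends on the length used. Per kb of the principal coding transcript, Nfkbia was at 788%, 737% and 590% of the summed subunits in wild-type libraries. In knockout libraries it was at 639%, 574% and 533%, and the log2 difference was -0.27 (exact permutation p = 0.2). Nfkbiz, whose product steers NF-kB to secondary response genes, was at 4191 ± 372 and 3886 ± 295 CPM, Nfkbid at 851 ± 172 and 964 ± 49 CPM, and Nfkbie at 531 ± 44 and 540 ± 62 CPM.

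**Figure D4:**
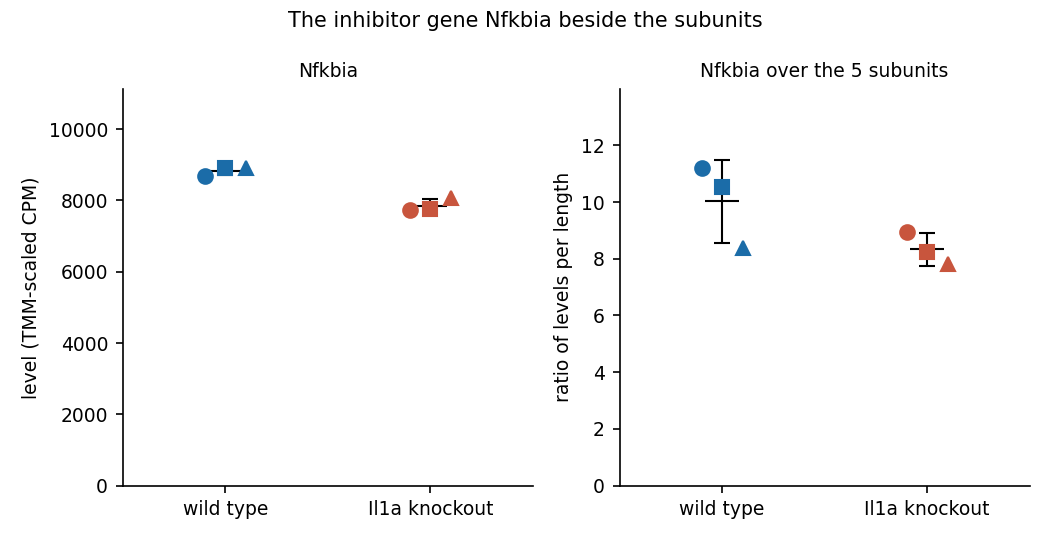
Left, Nfkbia level (TMM-scaled CPM), and right, Nfkbia over the summed 5 subunits (ratio of CPM per kb of merged exons), with mean and SD as bars and circles, squares and triangles for replicates 1, 2 and 3. Nfkbia lies between 8682 and 8901 CPM in wild-type and between 7723 and 8072 CPM in knockout libraries, while the ratios overlap.

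Of the kinases, 0 of 16 passed (median log2 fold change 0.038). Those of highest CPM were Irak2, a kinase of the IL-1 and Toll-like receptor complex, at 966 ± 147 and 951 ± 52 CPM, Irak3, its inactive relative that damps signalling, at 813 ± 222 and 755 ± 18 CPM, and Map3k8, the kinase bound by p105, at 292 ± 42 and 285 ± 33 CPM. Ikbke, an IkB kinase relative, was at 665, 648 and 699.9 CPM in wild-type libraries and 734, 733 and 788 CPM in knockout libraries. Its knockout libraries were all above its wild-type libraries, as were those of 6.12% of the tested genes (log2 fold change 0.16, edgeR adjusted p = 0.914). The genes of the IkB kinase complex were singled out after their values were seen. Ikbkb was at 64.9 ± 8.2 and 77.4 ± 10.5 CPM, Chuk at 31.6 ± 5.1 and 33.8 ± 1.4 CPM, and the scaffold gene Ikbkg at 14.9 ± 1.9 and 13.7 ± 1.5 CPM. Map3k14, which encodes NIK of the non-canonical route and was also chosen afterwards, was at 31.5 ± 6.1 and 33.2 ± 5.2 CPM. Among the kinases only Tab3, a subunit of the TAK1 complex, had an unadjusted p under 0.05, at 18.4 ± 1.5 and 13.2 ± 2.8 CPM (edgeR adjusted p = 0.786).

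Of the adaptors and ubiquitin ligases, 0 of 16 passed (median 0.0089), with Traf1 at 963 ± 171 and 993 ± 139 CPM, Birc3 at 821 ± 35 and 794 ± 25 CPM, the receptor adaptor Myd88 at 263 ± 17 and 240 ± 28 CPM, and the ligase Traf6 at 152 ± 30 and 138 ± 26 CPM. Of the deubiquitinases and brakes, 0 of 8 passed (median 0.046). Tnfaip3, which encodes the feedback protein A20, was at 4768 ± 716 and 4796 ± 461 CPM, and Tnip1, its partner, at 492 ± 46 and 527 ± 38 CPM. Zc3h12a, an RNase of inflammatory mRNAs, was at 501 ± 17 and 508 ± 66 CPM, and the deubiquitinase Cyld at 61.7 ± 2.0 and 64.8 ± 4.6 CPM.

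Of the TNF family ligands and receptors, 10 of 15 were tested and 0 passed (median -0.034). Tnfrsf1b, a TNF receptor, was at 4874 ± 870 and 4646 ± 87 CPM, Tnf at 838 ± 85 and 1012 ± 185 CPM, and Tnfrsf1a, the other TNF receptor, at 348 ± 22 and 322 ± 28 CPM. Tnfsf14, the gene of LIGHT, a ligand of the lymphotoxin beta receptor, was at 129, 116 and 107 CPM in wild-type libraries and 106, 84.6 and 86.0 CPM in knockout libraries. Its knockout libraries were all below its wild-type libraries, as were those of 5.48% of the tested genes. Tnfsf14 had an unadjusted edgeR p of 0.025 but did not pass over all genes (log2 fold change -0.35, edgeR adjusted p = 0.779). Ltbr, that receptor, was at 20.8 ± 2.1 and 18.2 ± 0.4 CPM and Cd40 at 1.02 ± 0.23 and 1.95 ± 1.18 CPM, both chosen after their values were seen.

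Of the NF-kB target genes, 31 of 32 were tested and 0 passed (median -0.011). Those of highest CPM were the cytokine gene Il1b at 22364 ± 1284.5 and 20217 ± 2390 CPM, the chemokine genes Cxcl2 at 24092 ± 1984.5 and 23092 ± 4535 CPM and Ccl4 at 16192 ± 2260.4 and 13909 ± 1634 CPM, and Il1rn, the IL-1 receptor antagonist gene, at 20503 ± 2528 and 18666 ± 718 CPM. At an unadjusted p under 0.05, 4 of the 31 were higher in the knockout and 0 lower, against 3.44% and 2.55% of all tested genes. Of the 31 log2 fold changes, 14 lay above 0 and 17 below. The 4 targets were named after their values were seen. Saa3, an acute phase gene, was at 306, 473 and 401 CPM in wild-type libraries and 495, 537 and 595 CPM in knockout libraries (log2 fold change 0.46, edgeR adjusted p = 0.694). Ptges, the prostaglandin E synthase gene, was at 41.4 ± 7.2 and 54.1 ± 7.1 CPM (adjusted p = 0.822). Il6 was at 3.44, 5.60 and 4.63 CPM and 6.35, 12.4 and 9.70 CPM (log2 fold change 1.06, adjusted p = 0.542), and Ccl5 at 2.51 ± 0.65 and 5.32 ± 2.48 CPM (adjusted p = 0.755). In knockout replicate 1 Ccl5 was at 2.48 CPM, within the wild-type range.

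**Figure D5:**
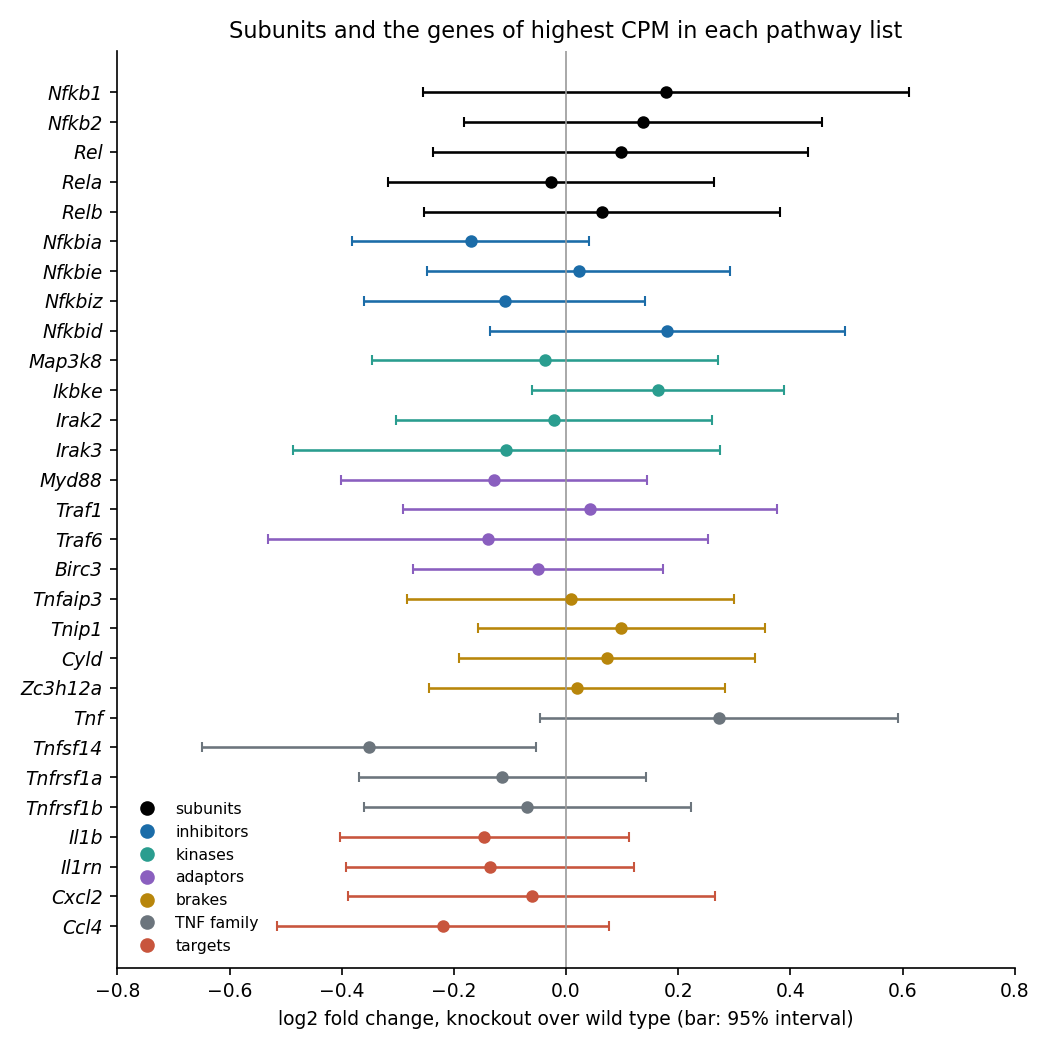
Log2 fold change, knockout over wild type, with 95% intervals from edgeR, for the 5 subunits and the 4 tested genes of highest mean CPM in each pathway list. The interval covers 0 for every gene shown except Tnfsf14, and the interval of Rela runs from -0.32 to 0.26.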

How the data were processed

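The authors deposited 1 table per library with raw whole-number counts per gene, without regard to strand and again split by strand in 2 more columns. Per the submitters' processing notes, reads went through FastQC 0.11.9, Trimmomatic 0.39 and STAR 2.7.8a on GRCm38 (mm10), and per the labels' protocols libraries were made with a SMART-Seq v4 low-input kit. The annotation release is not given in the sources used here. GENCODE M21 gave symbols, positions and lengths for 54809 of 54838 genes.

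Unstranded counts of all genes were filtered (edgeR default, by genotype) and scaled by TMM. Knockout was compared with wild type by the robust quasi-likelihood test of edgeR 4.0.16 in R 4.3.3, with Benjamini-Hochberg adjustment and a threshold of 0.05. A prior count of 3 entered log2 CPM. The 95% intervals came from the fit. The procedure was tried on simulated counts with planted changes larger than those estimated for the subunits and no effects shared within a library. It therefore does not show the power to detect changes as small as these. Members and gene lists were chosen with earlier results of these data known. Named genes are Il1a, the members, the 4 tested genes of highest mean CPM per pathway list, and the 3 genes of at least 50 CPM most correlated with each member; others are marked as chosen after their values were seen. Of the genes most correlated with Rel, 1 is not reported here. Biological replicates are numbered in the labels without naming animals; p-values thus measure the spread among these libraries only. Alternatives were other scalings and filters, the strand columns, DESeq2 1.42.0, limma-voom (limma 3.58.1), a replicate block and each library left out. The principal transcript length was added after the data were seen.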

Additional observations from a re-analysis of the deposited data

How the results depend on the processing

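The number of subunit genes called was 0 under each of the 15 alternative fits. At an unadjusted p under 0.05 it was 1 without wild-type replicate 3 (Rel) and 0 in the other fits. Over all genes, 12 were called in the reported fit, 185 without a filter, 21 with a filter at 5 CPM in 3 libraries, 69 by DESeq2, and 7 to 24 with 1 library left out (7 without wild-type replicate 1 or 2, 24 without knockout replicate 1). With the replicate block 20 were called, and 0 of the subunits. Deviations of same-numbered libraries from their group means correlated at 0.287, -0.0016 and 0.111 for replicates 1, 2 and 3. Between libraries of different number the values ran from -0.351 to 0.261. With only 3 libraries per group these values cannot decide whether the replicate numbers pair the libraries. The log2 difference of the summed subunit level was -0.0076 to 0.22 with 1 library left out. That of the non-canonical to canonical ratio was then -0.011 to 0.11. That of the Nfkbia to subunit ratio was -0.38 (without wild-type replicate 3) to -0.17 (without wild-type replicate 1). With library size alone the sign of the log2 fold change turned for Rela (0.039), Irak2 (0.042), Map3k8 (0.030), Birc3 (0.010), Lims1 (0.029), Vps37c (0.048). Without a filter the sign of the log2 fold change turned for Tnfaip3 (-0.0020), Rab10 (-0.0013). With the filter at 5 CPM the sign of the log2 fold change turned for Vps37c (0.0010). Library size alone moved the median of all genes from 0.0045 to 0.060. With 1 library left out the sign turned for the following genes, none of them called in any fit, over these ranges of log2 fold change: Rel -0.0083 to 0.28, Relb -0.076 to 0.19, Traf1 -0.073 to 0.20, Tnfaip3 -0.080 to 0.13, Zc3h12a -0.094 to 0.072, Nrbp1 -0.0025 to 0.11, Rsrp1 -0.011 to 0.051, Npepps -0.0042 to 0.29, Cflar -0.022 to 0.15, Rab10 -0.086 to 0.11, Lcp2 -0.065 to 0.15, Irf5 -0.063 to 0.19, Bcl2a1a -0.050 to 0.19, Rela -0.14 to 0.11, Nfkbie -0.076 to 0.095, Irak2 -0.13 to 0.10, Irak3 -0.29 to 0.12, Map3k8 -0.16 to 0.057, Traf6 -0.28 to 0.023, Tnfrsf1b -0.18 to 0.083, Cxcl2 -0.18 to 0.084, Lims1 -0.16 to 0.099, Vps37c -0.12 to 0.088, Csf2ra -0.034 to 0.28, Eif2s3y -0.022 to 0.26, Sp140 -0.0053 to 0.24. The cause of these turns was not tested. Each gene whose sign turned had a 95% interval that covers 0 in the reported fit. The subunits had at least 6888 counts in each library; these are reads from an amplified library and not independent molecules, and no alternative changed the depth.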
